A study of Mus musculus with 22 samples.

Results

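Caudal Neurectoderm was the name the authors gave to 1 of 25 cell types in a single-cell RNA time course of mouse gastruloids. It is described here from 2284 cells that carry that name in the deposited cell table, 2.94% of the 77674 listed cells found in the counts. Gastruloids are aggregates of embryonic stem cells that elongate and form derivatives of the trunk in culture. All came from 1 wild-type line, E14Tg2A, seeded at 300 cells per well, left to aggregate for 48 hours and then given 3 µM CHIR99021, a GSK3 inhibitor that activates Wnt signalling. Every group thus had the same genotype and treatment and no untreated group was used here. Cells of single gastruloids were tagged with lipid barcodes (MULTI-seq) and captured together in droplets. MULTI-seq 3 held day 3 gastruloids in 1 pool, days 3.5 and 4 in another and days 4.5 and 5 in the last. MULTI-seq 2 held days 4 and 4.5, MULTI-seq 1 held day 5, and 2 lanes of day 3 and day 4 cells carried no gastruloid tags. A gastruloid, with its cells summed over the lanes of its pool, was the replicate, and the protocol states that up to 32 gastruloids judged representative were picked at a collection. The day 3 and 3.5 lanes of MULTI-seq 2 were not analysed here.

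In the mouse embryo the caudal epiblast beside the node and primitive streak feeds both the spinal cord and the paraxial mesoderm. Cells there carry the homeobox factor Nkx1-2 and the Cdx factors, which promote posterior Hox genes. Keeping Sox2 goes with a neural fate, and gaining the T-box factor T (Brachyury) followed by Tbx6 goes with a mesodermal one. Wnt and FGF signals hold the population in the tail end, and retinoic acid from the somites promotes its neural differentiation.

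Of the 2284 cells, 1406 came from the day 3.5 and 4 pool of MULTI-seq 3, 393 from its day 3 pool, 51 from its day 4.5 and 5 pool. The others were 155 and 195 from the 2 pools of MULTI-seq 2, 33 and 43 from the untagged lanes of day 3 and day 4, and 8 from MULTI-seq 1. A single gastruloid was called for 1266 of them. In the day 3.5 and 4 pool 65.2% of Caudal Neurectoderm cells had such a call against 81.1% of all cells of that pool. Early Neurectoderm (58.9%), Primitive Streak (59.5%) and Caudal Epiblast (67.5%) were similarly low, and Cardiopharyngeal Mesoderm (95.0%) was high. Cells of Caudal Neurectoderm and of these 3 types were left out of the gastruloid sums more often than the average cell. Among singly called cells the median depth of Caudal Neurectoderm was 26368 UMIs at day 3, 37883.5 at day 3.5 and 33475 at day 4 of MULTI-seq 3. A total of 56 of the 2284 cells bore a droplet barcode that also occurred in another lane. In summed cells a lower level can mean fewer cells with a transcript or fewer transcripts per cell, and these were not told apart in the comparisons between days.

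The 4 genes tied to the name did not all mark these cells. At day 3.5, among the 11 types present with at least 10 cells in 3 or more gastruloids, Nkx1-2 (ENSMUSG00000048528) stood at 237 ± 26.3 CPM (UMIs scaled to the summed depth of a gastruloid's cells; mean ± SD, n = 13 gastruloids). Cdx2 (ENSMUSG00000029646), which promotes posterior identity, stood at 404 ± 38.5 CPM. Both were the highest means of the 11 types. The authors' NMPs (neuromesodermal progenitors), with 43 singly called cells at day 3.5, were not among the 11. Caudal Epiblast followed closely for Nkx1-2 at 212 CPM, and Early Spinal Cord for Cdx2 at 402 CPM. Within gastruloids holding both types, Nkx1-2 was higher in Caudal Neurectoderm than in Caudal Epiblast in 8 of 12 and Cdx2 in 9 of 12. These neighbours in the order lie within the spread between gastruloids.

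Sox2 (ENSMUSG00000074637), the neural and pluripotency factor, had rank 4 at 52.9 ± 11.3 CPM, well under Late Spinal Cord at 191 CPM. It was higher than in Caudal Epiblast (42.5 CPM) in 10 of 12 gastruloids. Hoxb1 (ENSMUSG00000018973), a Hox gene of the primitive streak and hindbrain, had rank 8 at 5.83 ± 2.73 CPM against 187 CPM in Early Posterior PSM (presomitic mesoderm). It was lower than in Caudal Epiblast in all 12 gastruloids holding both. Hoxb1 therefore went against the name, while Nkx1-2, Cdx2 and Sox2 were present. The authors' types were made from the same counts, so these orders are a description and were not tested.

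**Figure D1:**
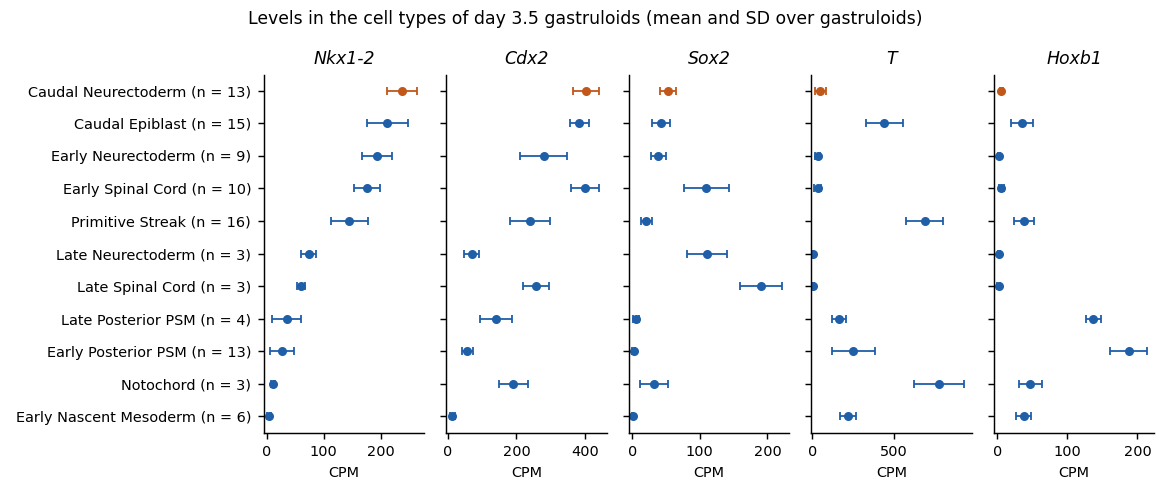
Mean level in CPM (points) with SD over gastruloids (bars) of Nkx1-2, Cdx2, Sox2, T and Hoxb1 in the 11 cell types of MULTI-seq 3 day 3.5, with Caudal Neurectoderm in orange and the number of gastruloids beside each type. Caudal Neurectoderm is at 237 CPM for Nkx1-2 and 404 CPM for Cdx2, the highest means, and at 5.83 CPM for Hoxb1, far under Early Posterior PSM at 187 CPM.

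T, the mesodermal T-box factor, separated these cells from Caudal Epiblast. It stood at 18.5 to 135 CPM over the 13 gastruloids in Caudal Neurectoderm and at 187 to 660 CPM over 15 gastruloids in Caudal Epiblast, ranges that do not overlap. After each cell was thinned to 5000 UMIs, T was seen in 18.0% of 726 Caudal Neurectoderm cells (60.1% unthinned). It was seen in 85.3% of 777 Caudal Epiblast cells (100% unthinned) and in 16.8% of 303 Early Neurectoderm cells (48.2% unthinned). The median depths of the 3 types were 37883.5, 38466 and 35579 UMIs. Sox2 was seen in 23.0%, 16.7% and 12.5% of the thinned cells of those 3 types, and in 0.651% of Early Posterior PSM cells, which should lack it.

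Sox2 and T were found together in 2.89% of thinned Caudal Neurectoderm cells (95% exact binomial interval 1.80 to 4.39) and in 13.3% of Caudal Epiblast cells. In the 43 NMPs they were together in 9.30% of thinned cells (95% exact binomial interval 2.59 to 22.1). Cdx2 was seen in 90.7% of these NMPs and in 86.6% of Caudal Neurectoderm cells after thinning. Tbx6, the factor of presomitic mesoderm, was seen in 0.689% of Caudal Neurectoderm cells against 53.5% of Early Posterior PSM cells. The endoderm factor Sox17 had no UMI in 726 cells after thinning, with an upper limit of 0.507% (95% exact binomial interval) at that depth. Unthinned, 1.52% of the cells had one. These intervals cover counting error only.

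No gene stood far above every other of the 11 types. Of 2985 genes with at least 50 CPM in Caudal Neurectoderm at day 3.5, 212 had their highest mean there, and the largest ratio to the next type was 1.20. The largest ratios were those of Mtss1, a membrane-bending adaptor (91.9 ± 11.5 CPM, ratio 1.20 to Early Spinal Cord), and Sall4, a zinc-finger factor of pluripotent and caudal progenitors (190 ± 16.6 CPM, ratio 1.16 to Early Neurectoderm). They were followed by the RNA helicase Ddx10 (ratio 1.14), Lin28a, the RNA-binding brake on let-7 maturation (343 ± 41.0 CPM, ratio 1.13 to Caudal Epiblast), and Nkx1-2 itself (ratio 1.12). Snhg5, the Wnt receptor Fzd10, Mapre2, the amino acid transporter Slc7a5, Mcm10, Tnpo1, the lipid desaturase Scd2, the growth factor Pdgfa, Ahcyl1 and Mpp7 completed the leading 15 with ratios from 1.08 to 1.12. Among the genes given above, Early Spinal Cord had Nkx1-2 at 176 CPM, Cdx2 at 402 CPM and T at 33.1 CPM, against 51.0 CPM of T in Caudal Neurectoderm and 34.3 CPM in Early Neurectoderm.

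The authors' table also assigns each cell to the most similar stage and type of a mouse embryo atlas. Of all Caudal Neurectoderm cells, 64.3% were mapped to Caudal epiblast, 14.9% to Ectoderm, 7.14% to Primitive Streak, 6.48% to NMPs (neuromesodermal progenitors) and 4.99% to Spinal cord progenitors. The mapped stage was most often E8.0 (40.6%) or E7.75 (23.9%). In gastruloids of MULTI-seq 3 with at least 10 such cells, the mean mapped stage was E7.67 ± 0.08 (SD, n = 5) at day 3 and E7.99 ± 0.13 (n = 13) at day 3.5. Day 3 ranged from 7.57 to 7.77 and day 3.5 from 7.81 to 8.33. The groups did not overlap, and the later stage at day 3.5 gave an exact two-sided permutation p = 0.000117, the smallest this design allows (adjusted p = 0.0007 over 6 mapped measures). The mapping to Ectoderm fell from 26.0% ± 12.4 to 8.23% ± 8.68 (exact permutation, adjusted p = 0.0116). That call was lost at a minimum of 5 cells (adjusted p = 0.249) and when lane A of the later pool was left out (adjusted p = 0.057). NMPs and Spinal cord progenitors were mapped in none of the cells of the 5 day 3 gastruloids and in 7.68% ± 6.18 and 6.18% ± 5.85 of the cells at day 3.5. Among the day 3 gastruloids of 5 to 9 cells, NMPs were 11.1% and 20% of the cells of 2, and 1 of these had a mean mapped stage of E8.0, inside the day 3.5 range. Day 4 rested on 2 gastruloids, at E7.97 and E8.05, and no mapped measure passed against day 3.5 (exact permutation test, smallest adjusted p = 0.0762, for Ectoderm; 2 against 13 cannot go below an unadjusted p of 0.00952).

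Caudal Neurectoderm was most abundant at day 3.5 and very unevenly spread among gastruloids. In MULTI-seq 3, its share of a gastruloid's cells had a median of 1.96% at day 3 (0 to 14.1, n = 24), 21.0% at day 3.5 (0.204 to 32.0, n = 16) and 0.257% at day 4 (0 to 25.1, n = 16). It was 0.432% at day 4.5 (0 to 3.46, n = 16) and 0 at day 5 (highest 0.301, n = 16). Of the 16 gastruloids at day 4, 14 held under 1% and 2 held 82.2% of all Caudal Neurectoderm cells of that day. Those 2, with 98 and 59 cells, were also the gastruloids with neural shares of 69.2% and 73.7%. The neural share is the percentage of a gastruloid's cells in the Early, Caudal and Late Neurectoderm, Early and Late Spinal Cord and Neurons. In MULTI-seq 2, 6 of 11 day 4 gastruloids held none and 3 held over 20%, up to 41.7%, while all 12 day 4.5 gastruloids held some, between 0.315 and 5.77%. Those 3 all had under 100 cells, and the 6 day 4 gastruloids with at least 100 cells averaged 0.882% ± 1.96.

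The mean share rose to day 3.5 and fell to day 4, while the ranges of the days overlapped. Day 3.5 was 14.6 percentage points above day 3, with 13 of 16 gastruloids above the day 3 median (permutation test, p = 1e-05, the smallest 100000 resamples give; adjusted p = 2.5e-05 over 10 types). These days were in different pools, so day and pool cannot be told apart. From day 3.5 to day 4, within 1 pool, the share fell by 15.0 points, with 15 of 16 gastruloids below the day 3.5 median (permutation test, adjusted p = 0.000617 over 20 types). Neither the lower mean at day 4.5 than at day 4 in MULTI-seq 2 (1.91% ± 1.71 against 10.4% ± 16.8, permutation test, adjusted p = 0.198) nor the difference at day 4 between MULTI-seq 3 and MULTI-seq 2 (2.62% ± 6.78 against 10.4% ± 16.8, adjusted p = 0.36) passed. Both changed sign when gastruloids with under 100 cells were left out (0.808 points higher and 1.74 points higher).

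**Figure D2:**
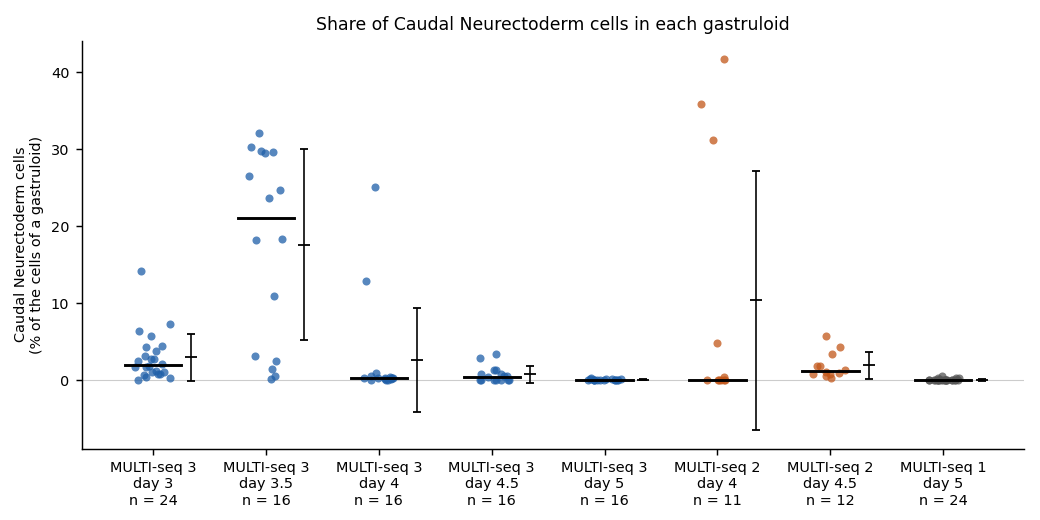
Percentage of a gastruloid's cells that were Caudal Neurectoderm, 1 point per gastruloid with at least 30 cells, by experiment and day. Black lines are medians, and the bars beside them give mean and SD. Points at MULTI-seq 3 day 3.5 reach 32.0%, with 5 gastruloids far under the others, and at day 4 14 of 16 lie under 1%.

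Which types went with it was asked over gastruloids. Each other type was taken as a share of the cells that were not Caudal Neurectoderm. This takes out the fixed sum of shares between Caudal Neurectoderm and each other type. The other types still have a fixed sum among themselves, so their relations are not independent of one another. A total of 14 relations were computed at days 3 and 3.5, of which 8 passed by Pearson's r and 12 by Spearman's rho after adjustment. Early Neurectoderm rose with it at day 3 (Pearson r = 0.79, Spearman rho = 0.81, n = 24, permutation p = 1e-05 and 2e-05, adjusted p = 7e-05 and 0.00028). It also did at day 3.5 (r = 0.61, rho = 0.75, n = 16, permutation p = 0.0125 and 0.00133, adjusted 0.0249 and 0.00258). At day 3.5 Early Posterior PSM (r = -0.91, rho = -0.81, permutation p = 1e-05 and 0.00031, adjusted 7e-05 and 0.00112) and Early Nascent Mesoderm (r = -0.86, rho = -0.80, permutation p = 3e-05 and 0.0004, adjusted 0.00014 and 0.00112) fell as Caudal Neurectoderm rose. Without the 2 gastruloids farthest from the median share, r was 0.78 at day 3 and 0.54 at day 3.5 for Early Neurectoderm, -0.89 for Early Posterior PSM and -0.85 for Early Nascent Mesoderm. Caudal Epiblast, the nearest type by Nkx1-2, was not related to it at day 3.5 beyond the permuted values (r = 0.18, rho = 0.23, n = 16, permutation p = 0.498 and 0.387, adjusted 0.498 and 0.416). At day 3 its rho passed (0.47, n = 24, permutation test, adjusted p = 0.0265) and its r did not (0.22, adjusted p = 0.36). Early Spinal Cord rose with Caudal Neurectoderm at day 3.5 (r = 0.62, rho = 0.80, permutation test, adjusted p = 0.0191 and 0.00112). Primitive Streak did so at day 3.5 (r = 0.56, adjusted p = 0.0492), but r did not pass among all cells (0.243) or at a minimum of 100 cells (0.0641).

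Genes were next compared between days by edgeR's quasi-likelihood test on counts summed over the Caudal Neurectoderm cells of a gastruloid, with Benjamini-Hochberg adjustment over all genes tested; levels are CPM scaled by TMM factors. Day 3.5 (13 gastruloids, 10 to 108 cells each) was set against day 3 (5 gastruloids, 11 to 40 cells each), across pools. Of the tested members of fixed lists, 10 of 22 Hox genes and 5 of 12 timing genes of the module of the RNA-binding protein Lin28 rose, and 6 of 9 epiblast genes fell. In all, 525 genes were higher and 767 lower at day 3.5, 14.1% of the 9141 tested (5.74% higher, 8.39% lower), and 4.57% had groups that did not overlap.

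Among Hox genes, which encode position along the body axis, 5 of 11 tested members of groups 1 to 4 and 5 of 11 of groups 5 to 9 were higher and none lower. No member of groups 10 to 13 passed the filter on low counts. Hoxc8, a trunk Hox gene, stood at 8.81, 6.94, 17.3, 0 and 11.3 CPM in the day 3 gastruloids and between 40.5 and 150 CPM, median 85.0, at day 3.5. Every day 3.5 gastruloid lay above these 5 day 3 gastruloids, a log2 fold change of 3.20 ± 0.43 (SE, edgeR adjusted p = 1.26e-06). At a minimum of 5 cells, which admits 13 day 3 gastruloids, the groups overlapped, the highest day 3 level of Hoxc8 being 188 CPM in a gastruloid of 5 cells, and the log2 fold change was 1.85 (edgeR adjusted p = 3.36e-05). Hoxa3, Hoxb3, Hoxc4, Hoxc5, Hoxc6 and Hoxc9 were also higher, by 1.23 to 1.76 on the log2 scale, each at 21.9 CPM or less in the 5 day 3 gastruloids with at least 10 cells. Hoxb1 reached 5.57 CPM in the median from 0 to 4.32 CPM (1.77, edgeR adjusted p = 0.0464). Hoxb1 and Hoxc5 had 4 and 5 UMIs in all at day 3, and with no filter on low counts both calls were lost (edgeR adjusted p = 0.0776 and 0.0648). The median log2 fold change was 0.86 over the 11 early and 0.85 over the 11 trunk genes tested, against 0.02 over all genes. The transcript Hoxaas3, antisense to HoxA genes, was higher by 1.98, but no source used here says whether counting used strand, so its reads and those of its partners may not be separable.

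Timing genes of the Lin28 module changed the same way in 5 of 12 tested, all higher. Nr6a1, an orphan nuclear receptor that acts in the trunk phase of axial growth, was at 105, 74.0, 108, 129 and 90.6 CPM at day 3. It was at 125 to 272 CPM, median 231, at day 3.5. Only the highest day 3 gastruloid entered the range of day 3.5 (log2 fold change 1.12 ± 0.14, edgeR adjusted p = 5.55e-07). Arid3b (0.85), the mRNA-binding Igf2bp2 (0.66) and the chromatin protein Hmga2 (0.42) followed. Within the neural list, Ncam1, a cell adhesion molecule of neural tissue, was at 77.8 to 116 CPM at day 3 and 116 to 205 CPM at day 3.5 without overlap (0.88 ± 0.14, edgeR adjusted p = 1.3e-05). Sox2 fell from 62.5, 67.1, 99.4, 81.5 and 106 CPM to a median of 52.0 CPM (27.4 to 67.8; log2 fold change -0.52 ± 0.18, edgeR adjusted p = 0.042). The Sox2 call was lost at a minimum of 5 cells (-0.34, edgeR adjusted p = 0.0766). The other 14 of 16 tested did not pass.

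Epiblast and pluripotency genes were lower in 6 of 9 tested and higher in none, with a median log2 fold change of -0.66. Pou3f1, a POU factor of the epiblast and early neural plate, stood at 39.6, 34.7, 38.9, 37.6 and 47.6 CPM at day 3 and at 12.3 to 25.2 CPM, median 18.1, at day 3.5, with no overlap (-1.17 ± 0.19, edgeR adjusted p = 2.31e-05). Epcam, an epithelial adhesion molecule, went from 173, 194, 82.1, 188 and 190 CPM to a median of 75.8 CPM (60.4 to 143; -1.12 ± 0.16), the gastruloid at 82.1 CPM lying inside the later range. Nanog (-1.39), L1td1 (-1.29) and Apela (-1.32), a peptide hormone of embryonic stem cells, were lower too. The call of L1td1 was lost with DESeq2 (adjusted p = 0.0783) and that of Nanog with no filter on low counts (edgeR adjusted p = 0.067). Epcam is also in the list of endoderm markers, whose summed level over gastruloids with at least 5 cells was 112 to 353 CPM at day 3 and 76.3 to 162 CPM at day 3.5; Epcam made up most of it, with means of 219 and 80.9 CPM, while Sox17, Foxa2, Cldn6 and Spink1 were each at 1.19 CPM or less in the mean on both days. The rest of the list had means of 6.79 and 4.42 CPM (Krt18), 4.55 and 2.40 CPM (Krt8) and 0.979 and 4.56 CPM (Trh).

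Further genes changed singly. Aldh1a2, which makes retinoic acid, was at 0 to 4.32 CPM at day 3 and 5.79 to 18.7 CPM at day 3.5 (2.97 ± 0.59, edgeR adjusted p = 0.000371). It was also the only tested member of the somite markers. Their summed level over gastruloids with at least 5 cells was 0 to 20.5 CPM at day 3 and 7.81 to 31.7 CPM at day 3.5. In it Aldh1a2 had means of 1.24 and 10.1 CPM, and Tcf15 of 7.92 and 4.62 CPM. The other named increases were Hist1h1c, Tmem132c, Myo9a, Gpt2, Cep250, Ints4 and the imprinted gene Peg10 (1.10 to 1.58), and the other named decreases Blvrb, Eva1b, Upp1, Card19, Ckb, Tmem141 and Mfsd10 (-0.97 to -1.15). Glycolysis genes were lower in 4 of 13, among them Ldha (-0.44), Eno1 (-0.32) and Pgk1 (-0.25), and higher in 1, the glucose transporter Slc2a3 (0.51). In other lists few members passed. These were 1 of 14 growth zone factors (Greb1, 0.71), 1 of 14 Wnt targets (Lef1, 0.39), 3 of 13 FGF targets (Il17rd 0.73, Dusp4 0.50, Spry2 -0.63) and Stmn2 (-0.50) of 4 neurogenesis genes. So did 2 of 16 G2 and M genes (Mki67 0.67, Cdk1 -0.31) and 4 of 16 S phase genes (Gins2 -0.46, Ccne1 -0.37, Slbp -0.22, Mcm6 0.31), and none of 12 Notch, 9 BMP and 5 Hedgehog genes. At a minimum of 5 cells Myo9a (0.78) and Stmn2 (-0.30) still passed at a smaller size. At that minimum the calls of Dusp4 (0.12, edgeR adjusted p = 0.592) and Slbp (-0.12, edgeR adjusted p = 0.122) were lost. Those of Cdk1 and Ccne1 were lost with DESeq2 (adjusted p = 0.0513 and 0.0515) and, with those of Pgk1, Slbp and Sox2, with no filter on low counts (edgeR adjusted p from 0.0506 to 0.203). Nkx1-2 (0.30 ± 0.11, edgeR adjusted p = 0.055) and Cdx2 (0.10 ± 0.07, 0.398) did not pass. Median depth moved with the day (26368 to 37883.5 UMIs per cell), its part was not tested, and without lane A of the day 3 pool, which left 2 day 3 gastruloids, 182 genes were called.

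**Figure D3:**
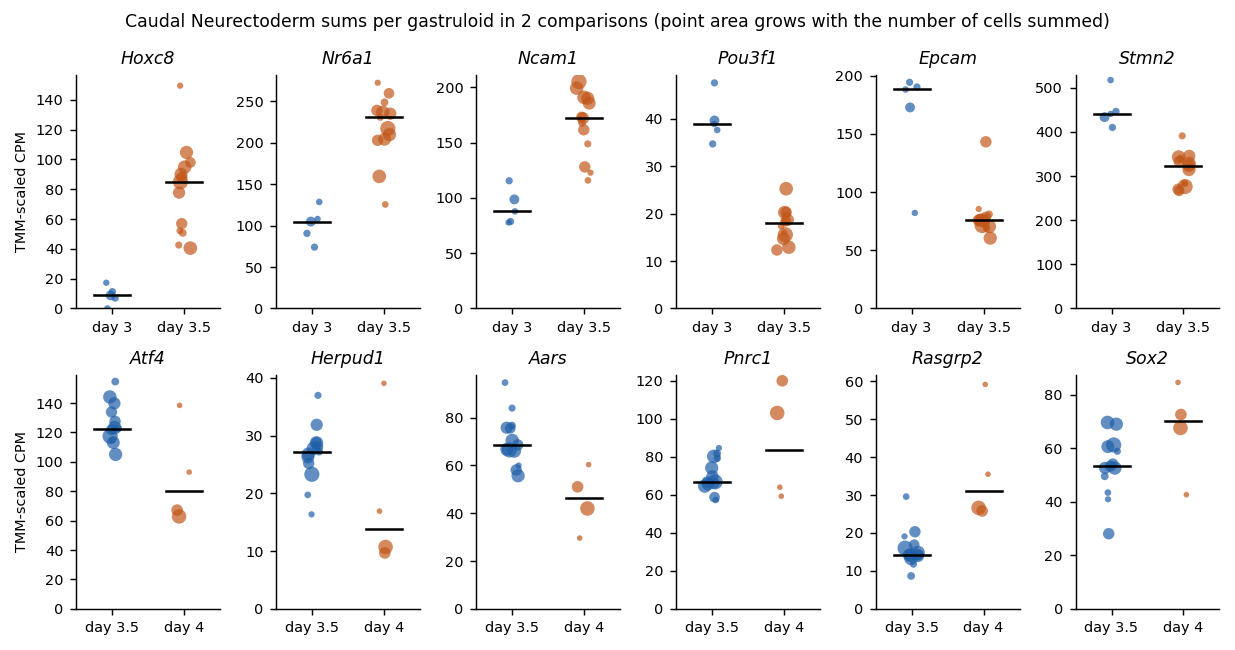
TMM-scaled CPM of 12 genes in Caudal Neurectoderm, 1 point per gastruloid with an area that grows with the number of cells summed and lines at the medians. Day 3 against day 3.5 is in the upper row, day 3.5 against day 4 in the lower row. Hoxc8 and Ncam1 lie higher and Pou3f1 and Stmn2 lower at day 3.5 with no overlap. In the lower row the 2 large day 4 points are under all day 3.5 points for Atf4 (62.9 and 67.2 against at least 105 CPM).

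Day 4 was set against day 3.5 within their shared pool. Only 4 day 4 gastruloids held at least 5 cells (6, 98, 59 and 6 cells), so this comparison leans on the 2 neural-rich gastruloids. The genes lower at day 4 included Atf4, Herpud1, Mthfd2 and Aars, and those higher included Pnrc1, Rasgrp2, Cdkn1b and Nusap1; no list of stress genes was fixed, so they are given singly. Of 10120 genes, 22 were higher and 26 lower, 0.474% in all (0.217% and 0.257%), and 0.425% had groups that did not overlap. Without either of the 2 large gastruloids no gene was called (743 and 782 genes at an unadjusted edgeR p under 0.05), so each value below rests on both of them.

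Atf4, the transcription factor of the integrated stress response, was at 138, 62.9, 67.2 and 93.0 CPM in the day 4 gastruloids of 6, 98, 59 and 6 cells. It was at 105 to 155 CPM, median 123, in the 13 of day 3.5. Of the 4, only 1 of the 6-cell gastruloids lay inside the day 3.5 range and the others below it (log2 fold change -0.81 ± 0.12, edgeR adjusted p = 0.000348). Herpud1, an endoplasmic reticulum stress protein, was at 39.1, 10.7, 9.67 and 16.9 CPM against 16.4 to 37.0 CPM (-1.15 ± 0.19, edgeR adjusted p = 0.00176), the same 6-cell gastruloid again standing highest. Mthfd2, a mitochondrial folate enzyme (-0.73), and Aars, the alanyl-tRNA synthetase (-0.58), were also lower. The calls of Mthfd2 (-0.32, adjusted p = 0.76) and of the Wnt-responsive factor Sp5 (-0.38, adjusted p = 0.645), were lost with DESeq2. For Aars the 4 values were 60.4, 42.0, 51.1 and 29.6 CPM against 55.7 to 94.7 CPM.

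The windows upstream of Herpud1 and Aars are shown because both, with Chac1, were the called genes with a match to the ATF4 composite element among the lower genes. The motif searched was TGATGNAA on both strands, found in 3.45% of 32851 windows of 250 bases before RefSeq gene starts (GRCm38.p6) and in 3 of 22 lower genes with a window. Each window is given 5′ to 3′ on the gene's strand, with the match in capitals, which here reads as the reverse complement. For Herpud1 it is chr8:94386179-94386428 (plus strand) and for Aars chr8:111033592-111033841 (plus strand). In both the match begins 112 bases before the start. In all, 5 motifs were searched, and GTGGGAA, the RBPJ core, was also in 3 of these 22 genes (5.42% of all windows). A match describes letters only, and motifs and genes were chosen after the values were seen.
Herpud1: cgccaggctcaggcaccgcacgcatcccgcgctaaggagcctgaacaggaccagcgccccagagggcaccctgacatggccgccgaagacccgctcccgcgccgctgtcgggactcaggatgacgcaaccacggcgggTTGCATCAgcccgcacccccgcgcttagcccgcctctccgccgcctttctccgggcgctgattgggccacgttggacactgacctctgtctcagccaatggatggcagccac
Aars: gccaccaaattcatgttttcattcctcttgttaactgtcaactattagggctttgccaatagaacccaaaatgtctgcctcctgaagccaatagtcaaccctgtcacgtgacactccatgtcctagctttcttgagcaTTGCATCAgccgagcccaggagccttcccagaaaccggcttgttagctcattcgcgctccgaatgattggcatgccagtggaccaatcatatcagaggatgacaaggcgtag

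The other named lower genes were Sema3e, a guidance ligand (-0.97), Rai14 (-0.79), Sp5 (-0.68), Ifrd1 (-0.68), the snoRNA host genes Zfas1 (-0.67) and Snhg4 (-0.62), and Usp36 (-0.60) and Bop1 (-0.53), both of the nucleolus. Bop1 was the only one of them without overlap (23.6 to 30.2 CPM against 30.3 to 49.3 CPM). Among higher genes, Pnrc1, a nuclear receptor cofactor, was at 63.9, 103, 120 and 59.2 CPM against 57.2 to 84.5 CPM (0.57 ± 0.10, edgeR adjusted p = 0.00241), only the 2 large gastruloids standing above the day 3.5 range. Rasgrp2 (0.91), Klhl24 (0.65), the cell cycle inhibitor Cdkn1b (0.56), Enho (0.55), Hp1bp3 (0.55), Pnpla8 (0.54), the cold-inducible RNA-binding protein Cirbp (0.52), Ddah2 (0.42), and Nusap1 (0.53), Aspm (0.47) and Sgo2a (0.45), which act on the mitotic spindle, completed the named increases. In the list of G2 and M genes 2 of 16 were higher (Mki67 and Tpx2, 0.34 each). Of the rest, 1 of 14 growth zone factors and 1 of 16 Wnt targets (Sp5 in both) were lower. No member of the neural, Hox, pluripotency, retinoic acid, FGF, Notch, BMP, Hedgehog, neurogenesis, Lin28, glycolysis or S phase lists passed. Beside Mthfd2 and Sp5, the calls of Nusap1, Usp36 and Bop1 were lost with DESeq2 (adjusted p = 0.0633, 0.0538 and 0.0522). Those of Sema3e, Sgo2a and Bop1 were lost at minimums of 10 and of 20 cells, that of Aspm at 10 and that of Tpx2 at 20 (edgeR adjusted p from 0.0502 to 0.0754). Nkx1-2 (-0.14), Sox2 (0.30), Hoxb1 (0.20) and Cdx2 (-0.05) did not pass (edgeR adjusted p from 0.465 to 0.89).

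Cells of the same name differed with the makeup of their gastruloid. Across the 13 day 3.5 gastruloids the neural share ran from 3.39 to 83.5%, with 2 gastruloids at 3.39 and 5.28%, 2 at 21.5 and 23.5% and 9 from 42.0% up. Where the neural share was high, Caudal Neurectoderm cells held more transcripts of neural factors (Sox1, Sox2, Sox3, Ncam1) and fewer of growth zone and mesodermal factors (T, Fgf8, Evx1, Hes7). At a minimum of 20 cells the calls of Sox2, Ncam1 and Fgf8 were lost, the slope of Fgf8 being -0.00341. Within the 9 gastruloids from 42.0% up, the correlation of level with the share was weaker for some of these genes. There r was -0.81 for T, -0.72 for Evx1, 0.70 for Sox1 and -0.61 for Hes7. It was 0.47 for Sox3, 0.40 for Sox2 and -0.36 for Fgf8. Tested as a slope per 10 percentage points, 55 genes were higher and 37 lower with the share, 0.908% of 10127 (0.543% and 0.365%). Of 14 growth zone factors tested, 5 were lower and none higher, and of 17 neural progenitor factors 4 were higher and none lower; the median slopes were -0.11 and 0.08 against -0.00102 over all genes.

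T was at 135 and 120 CPM in the 2 gastruloids of lowest neural share and at 18.5 to 135 CPM, median 38.5, over all 13. Its mean was 89.2 CPM in the 4 gastruloids of lowest share and 26.2 CPM in the 4 of highest share. The slope was -0.26 ± 0.03 on the log2 scale per 10 points (edgeR adjusted p = 2.5e-06). The correlation was r = -0.92 and rho = -0.92 between log2(CPM + 1) and the share (n = 13, permutation p = 3e-05 and 1e-05), and r = -0.83 without the 2 gastruloids farthest from the median share. Correlations were computed for 35 named genes, whose choice rested on the same values, so they describe the slope and do not support it.

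Hes7, the oscillating Notch target of presomitic mesoderm, had 37.3 and 78.8 CPM at the 2 lowest shares and a range of 12.3 to 78.8 CPM (slope -0.21 ± 0.03, edgeR adjusted p = 0.000183). Etv4, a target of FGF signalling, ran from 18.8 to 102 CPM (-0.22 ± 0.03), and the homeobox gene Evx1 from 11.1 to 31.1 CPM (-0.16 ± 0.03). Fgf8, the FGF ligand of the tail end, had 188 CPM at the lowest share and 17.2 to 86.9 CPM elsewhere. Its slope of -0.22 ± 0.05 (edgeR adjusted p = 0.032) went with r = -0.73, and r was -0.29 without the 2 gastruloids farthest from the median share. At a minimum of 20 cells its slope was -0.00341 (edgeR adjusted p = 0.996). Plk2 was called (-0.19 ± 0.04) although its correlation was weak (r = -0.17, rho = -0.38, n = 13, permutation p = 0.579 and 0.2). Evx1os (-0.28), which lies antisense beside Evx1 and may not be separable from it, Grsf1 (-0.17), Aopep (-0.16), Gap43 (-0.16), the receptor Epha5 (-0.15), Hoxb6 (-0.14) and Ldha (-0.07) were the other named genes that fell with the share.

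Upstream windows of T and Hes7 are shown because they were the 2 of 26 falling genes with a window that held the motif TTTATGG, the core bound by CDX factors. Cdx2 is one of the genes tied to the name. On both strands it was found in 2.43% of the 32851 windows and in none of the 33 rising genes with a window. The RBPJ core was likewise in 2 of the 26 falling genes, Hes7 and Plk2. The windows lie at chr17:8434173-8434422 for T and chr11:69120203-69120452 for Hes7, both on the plus strand of GRCm38.p6, and the match, in capitals, begins 178 and 223 bases before the start. Cdx2 itself did not pass (slope 0.01 ± 0.01, edgeR adjusted p = 0.88).
T: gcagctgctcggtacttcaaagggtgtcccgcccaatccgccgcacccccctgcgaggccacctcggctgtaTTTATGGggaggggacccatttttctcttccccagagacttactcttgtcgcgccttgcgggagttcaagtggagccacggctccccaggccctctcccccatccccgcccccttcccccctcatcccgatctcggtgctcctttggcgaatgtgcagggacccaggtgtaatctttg
Hes7: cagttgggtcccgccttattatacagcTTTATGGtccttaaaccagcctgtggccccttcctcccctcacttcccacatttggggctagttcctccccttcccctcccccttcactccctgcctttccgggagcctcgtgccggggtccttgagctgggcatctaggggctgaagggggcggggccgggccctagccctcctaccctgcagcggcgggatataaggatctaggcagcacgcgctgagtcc

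Of the genes that rose with the share, Sox1, the earliest factor of committed neural progenitors, had 7.85 and 8.15 CPM at the 2 lowest shares and a range of 6.07 to 38.7 CPM. Its mean was 8.98 CPM in the 4 gastruloids of lowest share and 31.0 CPM in the 4 of highest share (slope 0.29 ± 0.04, edgeR adjusted p = 1.56e-05). The correlation was r = 0.90 and rho = 0.81 (n = 13, permutation p = 7e-05 and 0.00145), and r = 0.83 without the 2 farthest. Ptn, the secreted growth factor pleiotrophin, ran from 546 to 1230 CPM and was lowest in the gastruloid of lowest share (0.11 ± 0.01). Meis2, a homeobox gene that responds to retinoic acid, ran from 0 to 35.7 CPM (0.38 ± 0.06), and the receptor Fgfr2 had a slope of 0.29 ± 0.05.

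Sox2 (0.11 ± 0.03, edgeR adjusted p = 0.0275) and Sox3 (0.11 ± 0.02) had small slopes. The other named genes that rose were Trp53i11 (0.19), Mt1 and Zswim6 (0.14 each), Metrn and Efnb1 (0.12 each), Hist1h1d (0.11), the isthmus factor Gbx2 (0.11), Tnfrsf19 (0.11), Nkd1 (0.10), Ncam1 (0.08), Hmga2 (0.07), Fgfr1 (0.07) and Prtg (0.06). Among the remaining lists 1 of 11 trunk Hox genes was lower, 1 of 12 retinoic acid genes, 1 of 16 Wnt targets and 2 of 12 Lin28 module genes were higher. FGF targets were split 2 and 2 of 13, and no early Hox, pluripotency, BMP, Hedgehog, neurogenesis, G2 and M or S phase gene passed. Nkx1-2 (-0.03) and Hoxb1 (-0.06) did not pass. At a minimum of 20 cells the calls of Sox2, Mt1, Zswim6, Metrn, Efnb1, Gbx2, Tnfrsf19, Nkd1, Ncam1, Hoxb6 and Ldha were lost. With DESeq2 those of Sox2, Plk2, Grsf1, Epha5 and Hmga2 were (adjusted p from 0.0855 to 0.404).

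Sums over the marker lists of other types also moved with the neural share in the same cells. They hold genes already called for the slope (Hes7, Rspo3, Evx1, Sox1, Sox2 and Sox3), so they are a description and no further support. Sox2 is also one of the genes tied to the name Caudal Neurectoderm. The summed level of 8 presomitic mesoderm markers in Caudal Neurectoderm ran from 69.0 to 198 CPM and fell with the share (r = -0.84, n = 13), against 1224 to 1574 CPM in Early Posterior PSM. Nearly all of it was Rspo3, Hes7 and Dll3, while Tbx6 was at 1.26 CPM and Msgn1 had 1 UMI in all 13 gastruloids together. The sum of 8 spinal cord markers ran from 23.7 to 79.3 CPM (r = 0.72), mostly Sox1, Hes5 and Irx3, with Olig2 at 1 UMI. That of the 8 markers of streak and nascent mesoderm ran from 13.6 to 38.5 CPM (r = -0.79), mostly Evx1. The markers of anterior epiblast and early neurectoderm ran from 83.1 to 152 CPM (r = 0.80). These were mostly Sox2, Sox3 and Pou3f1, the others, with Otx2 and Six3, each having a mean of 3.21 CPM or less. Those of neurons ran from 311 to 421 CPM (r = 0.60). They were mostly Stmn2 (mean 320 CPM) and Tubb3 (29.2 CPM), the others, with Neurod1 and Neurog2, each having a mean of 4.27 CPM or less. Cell number (r = 0.62) and median UMIs per cell (r = 0.47) also moved with the neural share. With the share of Caudal Neurectoderm in place of the neural share, 11 genes were called. No fit held both shares. Per 10 points of the Caudal Neurectoderm share, T (-0.55), Fgf8 (-0.70), Ptn (0.26), Gbx2 (0.30) and Gap43 (-0.35) passed. That share reached at most 32.0% at day 3.5 against 83.5% for the neural share, so the sizes of the 2 slopes cannot be compared. On the Caudal Neurectoderm share Sox1 (0.46) did not pass (edgeR adjusted p = 0.453). Nor did Sox2, Sox3, Ncam1, Hes7, Etv4, Evx1, Meis2 and Fgfr2 (edgeR adjusted p from 0.089 to 0.766). The part of mixed or borderline cells in the slopes was not tested.

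The slopes in 2 neighbouring types are given as a description. In Caudal Epiblast of 15 day 3.5 gastruloids log2(CPM + 1) changed per 10 points by -0.12 for T, 0.16 for Sox1, 0.18 for Ptn and 0.10 for Sox2. The changes were -0.30, 0.28, 0.12 and 0.09 by the same least-squares line in Caudal Neurectoderm. Etv4 (-0.01), Evx1 (-0.02), Meis2 (-0.00165) and Fgfr2 (0.03) were nearly flat in Caudal Epiblast, against -0.20, -0.15, 0.45 and 0.22 in Caudal Neurectoderm. Gap43 (0.04 against -0.17) and Epha5 (0.15 against -0.12) had opposite signs in Caudal Epiblast and Caudal Neurectoderm. Meis2 and Fgfr2 were also low in Caudal Epiblast, with medians of 4.87 and 1.77 CPM. In Early Neurectoderm of 9 gastruloids, all at a neural share of 42.0% or more, the slopes were -0.17 for Etv4, 0.31 for Meis2, 0.51 for Fgfr2, 0.32 for Sox1, -0.12 for T and 0.08 for Evx1. The differences between the types were not tested.

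**Figure D4:**
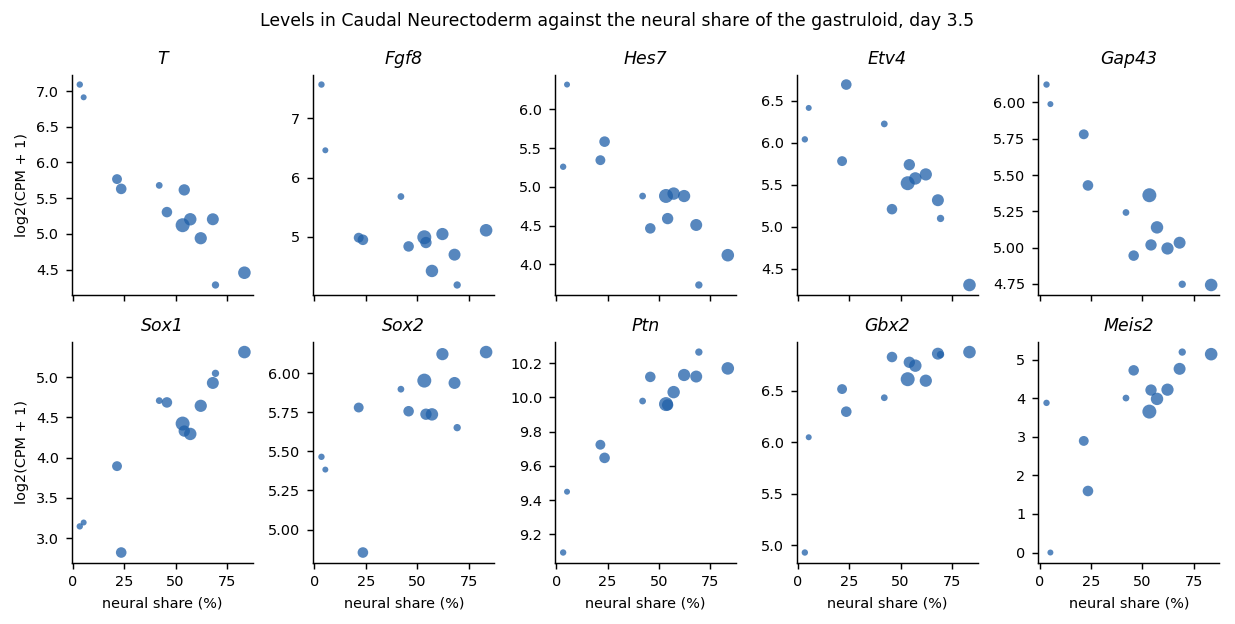
Level as log2(TMM-scaled CPM + 1) of 10 genes in Caudal Neurectoderm of the 13 day 3.5 gastruloids against the percentage of the gastruloid's cells in neural types, with point area growing with the number of cells summed. T falls from 135 CPM at the lowest share to a mean of 26.2 CPM in the 4 highest, Sox1 climbs to 31.0 CPM, and Fgf8 has a single point at 188 CPM, with all others at 86.9 CPM or less.

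Whether the changes between days were those of neighbouring types was tested as an interaction, with the gastruloid as a block. From day 3.5 to 4, in 13 and 4 gastruloids holding at least 5 cells of both, 5 of 10167 genes (0.0492%) changed differently in Caudal Neurectoderm than in Caudal Epiblast. Each was relatively higher in Caudal Neurectoderm at day 4, while with no filter on low counts 10 of 23 called genes were higher and 13 lower. Pou5f1, the pluripotency factor Oct4, was at 287 ± 47.7 CPM and 268 ± 101 CPM (SD) in Caudal Neurectoderm on the 2 days. It was at 314 ± 70.4 and 147 ± 40.4 CPM in Caudal Epiblast (interaction 0.93 ± 0.18 on the log2 scale, edgeR adjusted p = 0.0215). The 4 day 4 values were 419, 236, 202 and 216 CPM in Caudal Neurectoderm and 107, 162, 123 and 197 CPM in Caudal Epiblast. The ranges on day 4 do not overlap. Fst, the activin and BMP antagonist follistatin, was at 567 ± 95.8 and 519 ± 210 CPM against 1176 ± 127 and 619 ± 102 CPM (0.62 ± 0.12). L1td1 (1.69), the IGF-binding protein Igfbp2 (0.95) and the kinase Pim2 (2.03) were the others. The calls leaned on the 2 gastruloids with 6 Caudal Neurectoderm cells. At a minimum of 10 cells, or without the first of them, none was called (499 and 514 genes at an unadjusted edgeR p under 0.05). The interactions at 10 cells were 1.73 for L1td1, 1.29 for Pim2, 0.74 for Pou5f1, 0.71 for Igfbp2 and 0.26 for Fst. With DESeq2 the calls of Pou5f1 (adjusted p = 0.228), Pim2 (0.354) and Igfbp2 (0.056) were lost. Without the other 6-cell gastruloid, 1 gene was called, and without either of the 2 large gastruloids 3 were.

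From day 3 to 3.5, in 5 and 9 gastruloids holding at least 10 cells of both, 14 of 9136 genes (0.153%) changed differently in Caudal Neurectoderm than in Early Neurectoderm, each with a lower log2 change in Caudal Neurectoderm. With no filter on low counts, 17 of 29 called genes had a higher change and 12 a lower one. Both types of a gastruloid pass through the same pool, so an additive pool effect common to both cancels here. Ptn was at 1066 ± 223 and 1048 ± 77.8 CPM in Caudal Neurectoderm on the 2 days. It was at 602 ± 75.4 and 1021 ± 151 CPM in Early Neurectoderm (interaction -0.72 ± 0.09, edgeR adjusted p = 1.73e-07). Sox1 was at 28.6 ± 15.8 and 24.9 ± 6.39 CPM against 9.42 ± 3.93 and 29.0 ± 12.2 CPM (-1.83 ± 0.29). Cdh2, the neural cadherin, was at 124 ± 12.5 and 149 ± 8.56 CPM against 62.2 ± 7.03 and 122 ± 13.9 CPM (-0.66 ± 0.12). In each of these the means of the 2 types were farther apart at day 3 than at day 3.5. Tmsb4x (-1.05), Fabp7 (-1.27), Id2 (-1.03), Gbx2 (-0.65), Ncam1 (-0.65), Cyfip1 (-0.62), Gins2 (-0.58), Id3 (-0.50), Stmn2 (-0.49), Map1b (-0.48) and Qk (-0.43) were the rest. At a minimum of 5 cells the calls of Id2 (-0.58, edgeR adjusted p = 0.52), Ncam1 (-0.28, edgeR adjusted p = 0.727), Gins2 and Stmn2 were lost. With DESeq2 those of Tmsb4x (adjusted p = 0.269) and Id2 (0.143) were, and with no filter on low counts those of Ncam1, Cyfip1 and Gins2 (edgeR adjusted p from 0.0585 to 0.114). Of the 14 genes, 9 were still called at a minimum of 5 cells, 11 with DESeq2 and 10 with no filter, so the losses named are not complete. No Hox gene, epiblast gene or growth zone factor was among the 14, and 1 gene was called without lane A of the day 3 pool.

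**Figure D5:**
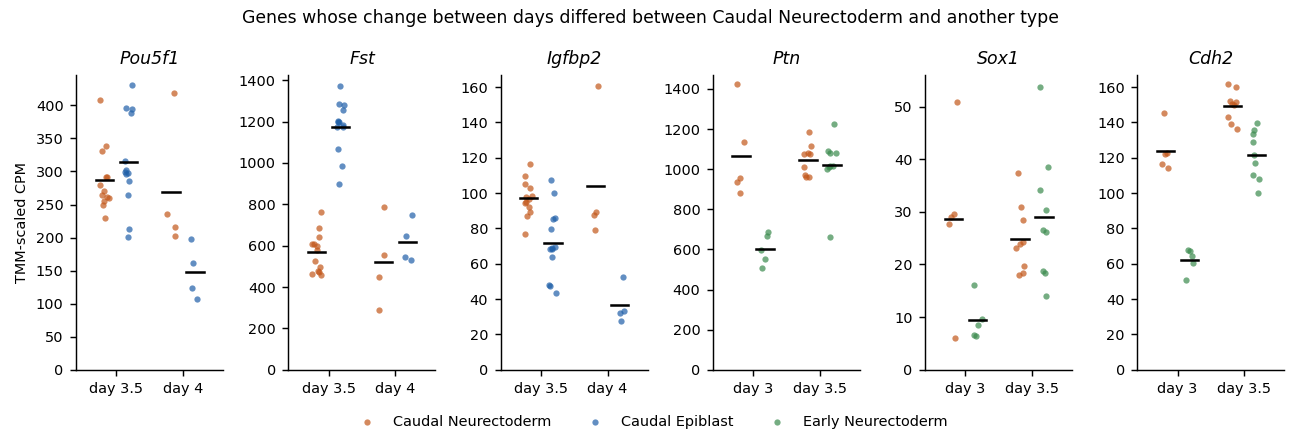
TMM-scaled CPM per gastruloid of 3 genes in Caudal Neurectoderm (orange) and Caudal Epiblast (blue) at days 3.5 and 4. The other 3 genes are shown in Caudal Neurectoderm and Early Neurectoderm (green) at days 3 and 3.5, with lines at the means. Pou5f1 has means of 287 and 268 CPM in Caudal Neurectoderm and goes from 314 to 147 CPM in Caudal Epiblast. Ptn in Early Neurectoderm goes from 602 to 1021 CPM, the level Caudal Neurectoderm has on both days.

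Cells of the same name were also present in the other experiments. In MULTI-seq 2 at day 4, the 4 gastruloids with at least 5 cells held 179 to 226 CPM of Nkx1-2 and 271 to 387 CPM of Cdx2, beside day 4 of MULTI-seq 3 (193 to 291 and 357 to 468 CPM). T was at 1.68 to 28.8 CPM there against 21.5 to 51.6 CPM, Pou5f1 at 133 to 195 against 201 to 442 CPM, and Nr6a1 at 99.7 to 128 against 152 to 211 CPM, the last 2 without overlap. The experiments were captured separately and no test was run. In the single untagged lanes of day 3 and day 4, Pou5f1 was at 727 and 188 CPM, Fst at 902 and 268 CPM, T at 160 and 56.1 CPM and Hoxc8 at 35.3 and 183 CPM, over 33 and 43 cells. Cdx2 was at 538 and 532 CPM in these lanes, above every tagged gastruloid of MULTI-seq 3 (highest 468 CPM). At day 4.5 of MULTI-seq 3, 2 gastruloids had at least 5 cells (11 and 10). That day was in another pool than days 3 to 4, so day and pool cannot be told apart. These 2 gastruloids held 73.8 and 89.1 CPM of Nkx1-2 and 224 and 285 CPM of Cdx2. Both genes were under every gastruloid of days 3 to 4 of that experiment. The same 2 gastruloids held 43.8 and 74.3 CPM of Fst against at least 246 CPM on those earlier days. In MULTI-seq 2 only 2 day 4.5 gastruloids had at least 5 cells (5 and 6). They held 99.1 and 147 CPM of Nkx1-2, 167 and 175 CPM of Cdx2 and 36.9 and 124 CPM of Fst. The summed level of the spinal cord markers was 110 and 254 CPM at day 4.5 of MULTI-seq 3, against 33.2 to 86.8 CPM at day 4. In MULTI-seq 2 it was 138 and 167 CPM against 31.9 to 68.8 CPM.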

How the data were processed

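The authors deposited, for each of 18 capture lanes, whole-number UMI counts per gene and droplet, made with Cell Ranger 6.0.0 on mm10 per the submitters' processing notes, which also name Seurat. The sources used here do not say whether counting used strand. Their cell table, also deposited, gives each kept cell its type, gastruloid call, day and mapped embryo stage. Cells were joined to counts by lane and barcode; 9 listed cells did not occur in their matrix and were dropped. No doublet caller was run; cells called as doublets of gastruloid barcodes were left out of the gastruloid sums.

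Shares used gastruloids with at least 30 cells. They were compared by two-sided permutation tests with 100000 resamples, adjusted over all types that averaged 1% or more. Only the mapped measures were compared over all arrangements. Relations used types of at least 2%. For genes, the counts of a gastruloid's Caudal Neurectoderm cells were summed (at least 10 cells, and at least 5 where day 4 entered, since only 2 day 4 gastruloids held 10, an adjustment made after the data were seen). They were tested with edgeR 4.0.16 (R 4.3.3; quasi-likelihood, TMM, filterByExpr, adjusted p under 0.05, only the groups compared), with gastruloid as a block in the interaction fits; DESeq2 1.42.0 was an alternative. The SE given with edgeR values was derived from the quasi-likelihood F, as the absolute log2 value divided by the square root of F. Each fit was tested on simulated data. Python 3.11.15, numpy 2.4.6, scipy 1.17.1 and pandas 2.3.3 did the rest.

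Named genes were the 12 with the largest change in each direction among called genes with a mean of at least 20 CPM in the higher group, up to 4 called members of each gene list, and the 4 marker genes; T, Tbx6, Sox17, Chac1, Map1b and Qk, and the genes set beside the other experiments, were chosen after their values were seen. The members and the lists were chosen with earlier results of these data known. Gastruloids are separate aggregates of 1 line, so p-values cover the spread between aggregates and not between lines or repeats of the experiment. Alternatives were other normalization and filters, other cell minimums, and leaving out each lane or gastruloid. Promoter windows came from RefSeq on GRCm38.p6; all 4 genes looked up had one.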

Additional observations from a re-analysis of the deposited data

Results flagged for a closer look

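Of 84 groups of values tested, 54 of the 5 day 3 and 30 of the 4 day 4 gastruloids, 4 held 1 gastruloid far from the others, all at day 3, where chance alone sets apart about 1 in 20 groups. Epcam was at 82.1 CPM in 1 gastruloid and at 173 to 194 CPM in the other 4. Card19 was at 34.5 CPM against 20.4 to 23.8 CPM, Dusp4 at 13.6 CPM against 30.2 to 36.1 CPM, and Myo9a at 13.9 CPM against 8.64 to 9.69 CPM.

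The change from day 3.5 to day 4 differed between Caudal Neurectoderm and Caudal Epiblast, by the interaction test, for Pim2 (2.03 on the log2 scale), L1td1 (1.69), Igfbp2 (0.95), Pou5f1 (0.93) and Fst (0.62). The change from day 3 to day 3.5 differed between Caudal Neurectoderm and Early Neurectoderm for Sox1 (-1.83), Fabp7 (-1.27), Tmsb4x (-1.05), Id2 (-1.03), Ptn (-0.72), Cdh2 (-0.66), Gbx2 (-0.65), Ncam1 (-0.65), Cyfip1 (-0.62), Gins2 (-0.58), Id3 (-0.50), Stmn2 (-0.49), Map1b (-0.48) and Qk (-0.43).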

How the results depend on the processing

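No paired analysis was possible because, for the comparisons between days, each gastruloid was collected on 1 day and lanes are technical splits of 1 pool; the interaction fits already hold the gastruloid as a block. The fall in share from day 3.5 to 4 and the rise from day 3 kept their direction and passed under every alternative run. In MULTI-seq 2 the difference between days 4.5 and 4 became 0.808 points at a minimum of 100 cells and 0.149 on centred log ratios, and the day 4 difference between experiments became 1.74 points at that minimum; the cause was not tested. The mapping to Ectoderm lost its call at a minimum of 5 cells (-6.35 points) and when lane A of the later pool was left out (-15.1 points).

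Counts of called genes moved as follows, and the cause was not tested. For day 4 against day 3.5 (48 genes), leaving out lanes A, B, C and D of the pool gave 77, 11, 22 and 23 genes, and leaving out each day 4 gastruloid gave 0 to 82. For day 3.5 against day 3 (1292), leaving out lane A of the day 3 pool gave 182, with 2 day 3 gastruloids left, and leaving out each day 3 gastruloid gave 827 to 1083; with no filter on low counts 53.6% of calls were higher, against 40.6%. For the slope (92), no filter gave 142, and leaving out lanes A, B, C and D gave 39, 28, 121 and 33. The share of Caudal Neurectoderm in place of the neural share gave 11. For the interaction with Caudal Epiblast (5), DESeq2 gave 2, no filter 23 (10 higher, 13 lower), minimums of 10 and 20 cells 0 each (499 and 583 genes at an unadjusted edgeR p under 0.05), leaving out lanes A and B 1 each, and leaving out each day 4 gastruloid 0 to 3. For the interaction with Early Neurectoderm (14), no filter gave 29 (17 higher, 12 lower), leaving out lane A of the day 3 pool gave 1, leaving out lanes A, C and D of the day 3.5 and 4 pool gave 7, 8 and 8, and leaving out each day 3 gastruloid gave 6 to 14.

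Signs turned for values that had not passed. Hoxb1 at day 4 became -0.13 without lane A and -0.0125 without the 98-cell gastruloid, and Cdx2 0.00197 without the 59-cell one. Leaving out each day 4 gastruloid gave -0.0125 to 0.42 for Hoxb1 and -0.0882 to 0.00197 for Cdx2. The Hoxb1 slope became 0.0261 without lane B and 0.00659 on the share of Caudal Neurectoderm in place of the neural share. The Cdx2 slope became -0.0122 at 20 cells, -0.0230 and -0.00702 without lanes A and C, and -0.0152 without the 2 farthest gastruloids. The relation with Primitive Streak at day 3 became 0.0728 without the 2 farthest gastruloids, and that with Caudal Epiblast at day 3.5 became -0.0889 among all cells. A minimum of 20 cells at day 3, and leaving out lane B of that pool, could not be fitted.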

Other observations

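In both pools of MULTI-seq 2 without or with gastruloid calls, Caudal Neurectoderm made up a similar share, 3.82% of 5106 cells in the pool without calls and 3.27% of 4746 cells in the pool with them. In the 2 lanes of the pool without calls, Nkx1-2 stood at 172 and 187 CPM, Cdx2 at 334 and 355 CPM and T at 17.2 and 25.6 CPM in these cells, values that belong to no day because the pool mixes days 4 and 4.5.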
